A study of Arabidopsis thaliana with 9 samples.

Results

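The cellulose synthase complex genes described here are the 9 catalytic subunit genes CESA1 to CESA9 and CSI1, the gene of a protein that links the complex to microtubules. They were chosen by locus, by a rule that names the gene family and uses no measured value, although earlier results of these data were known when they were chosen. They make up 10 of the 27218 genes in the tables of Arabidopsis thaliana seedlings. All 10 passed the filter on low counts, which kept 20103 genes. RNA was sequenced from 3 libraries each of SR45a-1a-OE, seedlings overexpressing the SR45a-1a form of the splicing factor gene SR45a, of sr45a, a mutant of the same gene, and of wild type (WT). All 9 libraries came from 2-week-old seedlings held at 45 °C for 3 h, so every difference below is between heated seedlings, with no unheated library among them. Neither the promoter of the overexpression construct nor the sr45a allele is given in the sources used here. The labels speak of overexpression lines but do not say whether the numbers 1 to 3 are separate lines, separate cultures or repeated samples of 1 culture, so the p-values rest on a spread between libraries that could be technical.

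Cellulose is made at the plasma membrane by rosette-shaped complexes of CESA proteins, which draw UDP-glucose from the cytoplasm and extrude glucan chains that pack into microfibrils. In growing cells the primary wall complex holds CESA1, CESA3 and a position that CESA6 or its close relatives CESA2, CESA5 and CESA9 can fill. In xylem vessels and fibres a separate complex of CESA4, CESA7 and CESA8 makes the thick secondary wall, and loss of any of these gives collapsed (irregular) xylem. CSI1, also called POM2, binds both the CESA proteins and cortical microtubules and so guides the complexes along microtubule tracks.

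A stretch of the catalytic site is shown for the 9 CESA genes because their likeness bears on how well reads can be told apart between these paralogs. The windows below hold 45 coding bases of each gene around the codons of the QXXRW motif, which belongs to the catalytic core of the enzyme. They were read from the TAIR10.1 genome on the coding strand, and the 15 bases of the motif are in capitals.
CESA1: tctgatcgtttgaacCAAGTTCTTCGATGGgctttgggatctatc
CESA3: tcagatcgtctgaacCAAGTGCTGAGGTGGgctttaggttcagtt
CESA6: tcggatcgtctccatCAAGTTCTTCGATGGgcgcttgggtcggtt
CESA5: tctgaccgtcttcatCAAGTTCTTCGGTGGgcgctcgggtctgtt
CESA2: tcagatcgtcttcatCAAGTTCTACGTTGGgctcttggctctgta
CESA9: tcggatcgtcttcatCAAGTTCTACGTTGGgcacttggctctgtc
CESA4: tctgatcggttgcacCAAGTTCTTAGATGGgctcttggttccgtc
CESA7: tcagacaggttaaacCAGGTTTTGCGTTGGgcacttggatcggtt
CESA8: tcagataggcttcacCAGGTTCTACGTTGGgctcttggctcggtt
Relative to CESA6, the window differed at 6 bases in CESA5, 7 in CESA9 and 8 in CESA2, but at 12 in CESA1 and 13 in CESA3. Over the aligned coding sequence CESA5 and CESA6 were identical at 85.8% of 3207 bases and CESA2 and CESA9 at 84.7% of 3240 bases, while CESA1 and CESA3 shared 71.0%. The longest stretch that CESA5 and CESA6 had in common was 50 bases and that of CESA2 and CESA9 was 41, both shorter than the 150-bp reads.

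The 10 genes differed widely in level. Levels between genes are compared in gene FPKM, fragments scaled to gene length and library depth. The annotated transcripts of CESA4 and CESA7 gave lower levels than their gene FPKM, as described further below. In WT, CESA3 averaged 132 ± 10.15 FPKM, CESA1 105 ± 8.54 FPKM and CESA6 86.9 ± 7.13 FPKM (SD, n = 3), and the WT libraries of these 3 genes did not overlap. CESA5 (31.8 ± 2.27 FPKM) and CESA2 (28.7 ± 2.53 FPKM) formed a middle level whose WT libraries overlapped, followed by CSI1 (14.8 ± 2.73 FPKM) and CESA4 (11.7 ± 1.95 FPKM), which overlapped too. CESA7 (2.56 ± 0.818 FPKM) and CESA8 (2.33 ± 0.582 FPKM) were also within each other's range, and CESA9, known mainly from the seed coat and embryo, was lowest at 0.344 ± 0.118 FPKM. In the sr45a libraries CESA2 (26.0 ± 1.66 FPKM) averaged above CESA5 (23.6 ± 2.96 FPKM), as in the SR45a-1a-OE libraries (18.1 ± 2.52 FPKM for CESA2, 16.1 ± 3.04 FPKM for CESA5), and both times the ranges of the pair overlapped. The plot of levels by library shows the whole set.

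**Figure D1:**
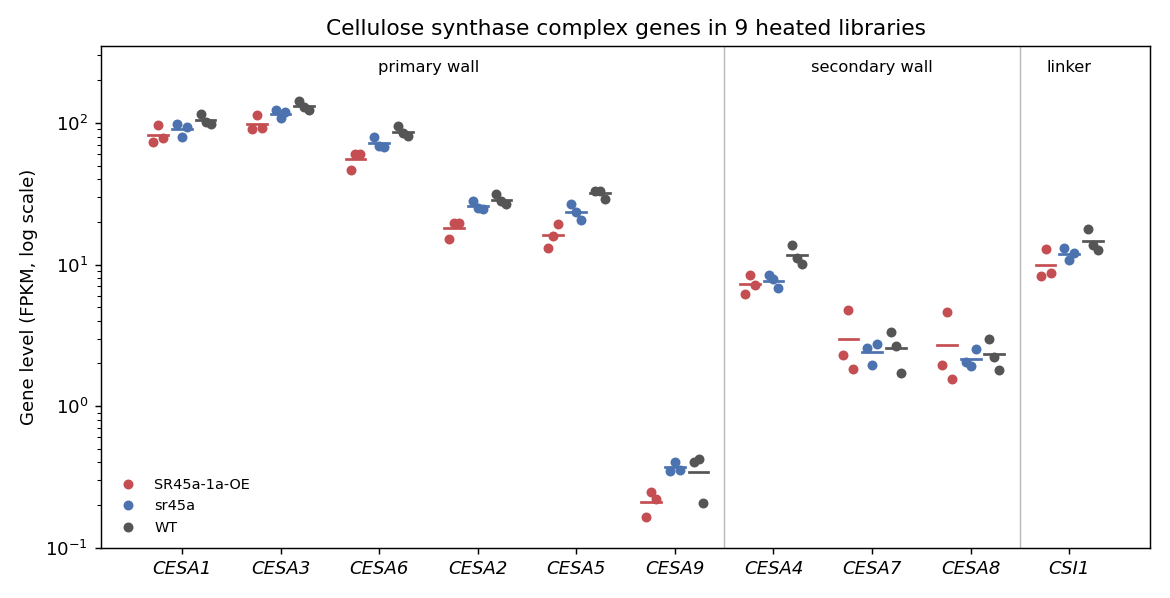
FPKM (log scale) of the 10 genes in each library; points are libraries, short bars are means of 3, and from left to right within a gene stand SR45a-1a-OE, sr45a and WT. CESA5 lies at 13.2 to 19.2 FPKM in SR45a-1a-OE, below every WT library, whereas CESA7 and CESA8 overlap between all groups.

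Depth was 18036195 to 21864604 gene counts per library, and SR45a, the gene altered in the lines, stood at 503 to 555 FPKM in SR45a-1a-OE, 0.955 to 3.68 FPKM in sr45a and 204 to 226 FPKM in WT. Replicate 3 of SR45a-1a-OE and replicate 3 of sr45a stood apart on the first principal component, which took 36.6% of the variance: their scores were 16.2 and 4.70, against 47.0 and 48.3 in the other SR45a-1a-OE libraries, −25.3 and −22.2 in the other sr45a libraries and −25.3 to −20.9 in WT. Some tissue markers also differed between genotypes. The summed level of 5 root markers was 83.8 to 134 FPKM in SR45a-1a-OE and 95.7 to 123 FPKM in sr45a, against 146 to 153 FPKM in WT. By edgeR 2 of the 5 were lower in SR45a-1a-OE than in WT (PHT1;1 and PRP3) and 1 was higher (THAS), while EXPA7 and COBL9 did not pass. In sr45a 1 was lower than in WT, PHT1;1. This gene had the highest mean CPM of the 5 in WT (145, against 85.8 in SR45a-1a-OE and 90.1 in sr45a). In SR45a-1a-OE the fall of the sum therefore does not describe the 5 markers as a set. In sr45a THAS, PRP3 and COBL9 did not pass but, like PHT1;1, lay below every WT library in CPM. Their log2 fold changes were −0.85, −0.54 and −0.42, beside −0.68 for PHT1;1, and EXPA7 overlapped WT (−0.04). Such an order was shown by 12.8% of all tested genes. The sum of 3 leaf markers was 11970 to 13838 FPKM in SR45a-1a-OE and 13172 to 13521 FPKM in sr45a, against 9940 to 11141 FPKM in WT, with 1 of the 3 higher in SR45a-1a-OE than in WT and none called in sr45a. The sum of 3 dividing-cell markers was 3.61 to 6.45 FPKM in SR45a-1a-OE and 3.14 to 3.69 FPKM in sr45a, against 3.19 to 3.83 FPKM in WT. Of these KNOLLE, a cytokinesis gene, was higher in SR45a-1a-OE than in WT (log2 fold change 1.03, SE 0.28, edgeR adjusted p = 0.0283), lower in sr45a than in WT (−2.48, SE 0.38, edgeR adjusted p = 0.00797) and higher in SR45a-1a-OE than in sr45a (3.51, SE 0.36, edgeR adjusted p = 0.000633), while CYCB1;1 and CDKB2;1 did not pass in any comparison. Leaf, root, xylem and dividing-cell markers were detected in every library, which fits the whole-seedling label. In such bulk samples fewer cells of a type and less RNA per cell cannot be told apart, and the part of these shifts in the results below was not tested.

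In SR45a-1a-OE against WT, 4 of the 10 genes fell and none rose: CESA5, CESA2 and CESA6 of the primary wall complex and CESA4 of the secondary wall complex. By the fitted fold change CESA5 fell by 47.8%, CESA4 fell by 35.7%, CESA2 fell by 34.6% and CESA6 fell by 33.8%. Of all tested genes 8.59% fell and 6.76% rose at the same threshold, an adjusted p under 0.05 in edgeR's quasi-likelihood test. In 7 of the 10 genes every SR45a-1a-OE library lay below every WT library on TMM-scaled counts, an order that 18.7% of all tested genes showed. The median log2 fold change of the 10 was −0.56, beside 0.01 over all tested genes. An unadjusted edgeR p under 0.05 was found in 7 of the 10, and in 6430 of all 20103 tested genes. In sr45a against WT CESA4 fell and the other 9 genes did not pass, where 0.761% of all genes fell and 0.861% rose. Of the 10, 5 lay below WT in every sr45a library on TMM-scaled counts (CESA1, CESA3, CESA4, CESA5 and CESA6), against 12.8% of all genes, and the median log2 fold change was −0.20. The 2 comparisons with WT share the 3 WT libraries.

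CESA6 (AT5G64740, chr5:25881033-25886728, plus strand, 13 exons) encodes the most abundant of the interchangeable primary wall subunits here. It was measured at 46.9, 60.1 and 60.1 FPKM in SR45a-1a-OE, 79.5, 68.6 and 67.8 FPKM in sr45a and 94.9, 84.6 and 81.2 FPKM in WT. The groups did not overlap: SR45a-1a-OE was lowest, sr45a lay between, and WT was highest. In SR45a-1a-OE against WT the log2 fold change was −0.60 (SE 0.12, edgeR adjusted p = 0.00857). In sr45a against WT it was −0.28 (SE 0.12, edgeR adjusted p = 0.267), and in SR45a-1a-OE against sr45a −0.31 (SE 0.12, edgeR adjusted p = 0.119), neither of which passed.

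CESA5 (AT5G09870, chr5:3072870-3078416, plus strand, 13 exons), which besides its primary wall role supplies cellulose of the seed coat mucilage, showed the largest fall of the 10 in SR45a-1a-OE against WT. It stood at 13.2, 15.8 and 19.2 FPKM in SR45a-1a-OE, 26.6, 23.6 and 20.6 FPKM in sr45a and 32.8, 33.3 and 29.1 FPKM in WT. Again no group overlapped another and sr45a was intermediate. The log2 fold change was −0.94 (SE 0.13, edgeR adjusted p = 0.00335) in SR45a-1a-OE against WT and −0.44 (SE 0.13, edgeR adjusted p = 0.138) in sr45a against WT.

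For CESA2 (AT4G39350, chr4:18296388-18302192, plus strand, 13 exons), another of the interchangeable subunits, the values were 15.2, 19.6 and 19.5 FPKM in SR45a-1a-OE, 27.9, 25.3 and 24.8 FPKM in sr45a and 31.5, 27.95 and 26.6 FPKM in WT. SR45a-1a-OE lay below both other groups, whereas sr45a overlapped WT. The log2 fold change was −0.61 (SE 0.11, edgeR adjusted p = 0.00579) in SR45a-1a-OE against WT and −0.15 (SE 0.11, edgeR adjusted p = 0.532) in sr45a against WT.

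CESA9 (AT2G21770, chr2:9284391-9289744, plus strand, 13 exons) completes this subfamily but had only 14 to 21 counts in SR45a-1a-OE, 28 to 30 in sr45a and 18 to 36 in WT. Its SR45a-1a-OE libraries overlapped WT, and its log2 fold change of −0.66 had an SE of 0.31 (edgeR adjusted p = 0.164). The sr45a libraries overlapped WT as well (log2 fold change 0.09, SE 0.29, edgeR adjusted p = 0.914). Seed markers also differed: CRA1, CRC and OLEO1 encode a pair of storage proteins and an oil body protein. They summed to 0.730, 3.47 and 0.521 FPKM in SR45a-1a-OE and 11.4 to 20.05 FPKM in sr45a, against 0.295 to 0.450 FPKM in WT. By edgeR all 3 were higher in sr45a than in WT. In SR45a-1a-OE against WT OLEO1 was higher (0.300 against 0.0301 CPM, edgeR adjusted p = 0.0429), while CRA1 and CRC did not pass. Of the 3, 2 were at 0 in at least 1 library. Their part in the CESA9 values was not tested.

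CESA1 (AT4G32410, chr4:15640490-15646844, minus strand, 14 exons) and CESA3 (AT5G05170, chr5:1530132-1535558, minus strand, 15 exons) hold the obligate positions of the primary wall complex. CESA1 was at 73.7, 96.5 and 78.3 FPKM in SR45a-1a-OE, 98.1, 79.5 and 94.4 FPKM in sr45a and 115, 102 and 98.5 FPKM in WT. CESA3 was at 90.3, 114 and 92.7 FPKM in SR45a-1a-OE, 123, 108 and 119 FPKM in sr45a and 143, 130 and 123 FPKM in WT. For both genes the SR45a-1a-OE libraries lay below all WT libraries and overlapped sr45a, and replicate 2 was the highest of the SR45a-1a-OE libraries. Neither passed the threshold in SR45a-1a-OE against WT, with log2 fold changes of −0.30 (SE 0.13, edgeR adjusted p = 0.128) for CESA1 and −0.36 (SE 0.11, edgeR adjusted p = 0.0518) for CESA3. The 95% interval ran from −0.57 to −0.02 for CESA1 and from −0.61 to −0.11 for CESA3. CESA3 lay close to the threshold and passed it in 6 of 19 other settings, among them DESeq2 (adjusted p = 0.0151) and the fit without SR45a-1a-OE replicate 2 (edgeR adjusted p = 0.0328). In sr45a against WT the log2 fold changes were −0.22 (SE 0.13) for CESA1 and −0.19 (SE 0.11) for CESA3, with edgeR adjusted p of 0.417 and 0.452.

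**Figure D2:**
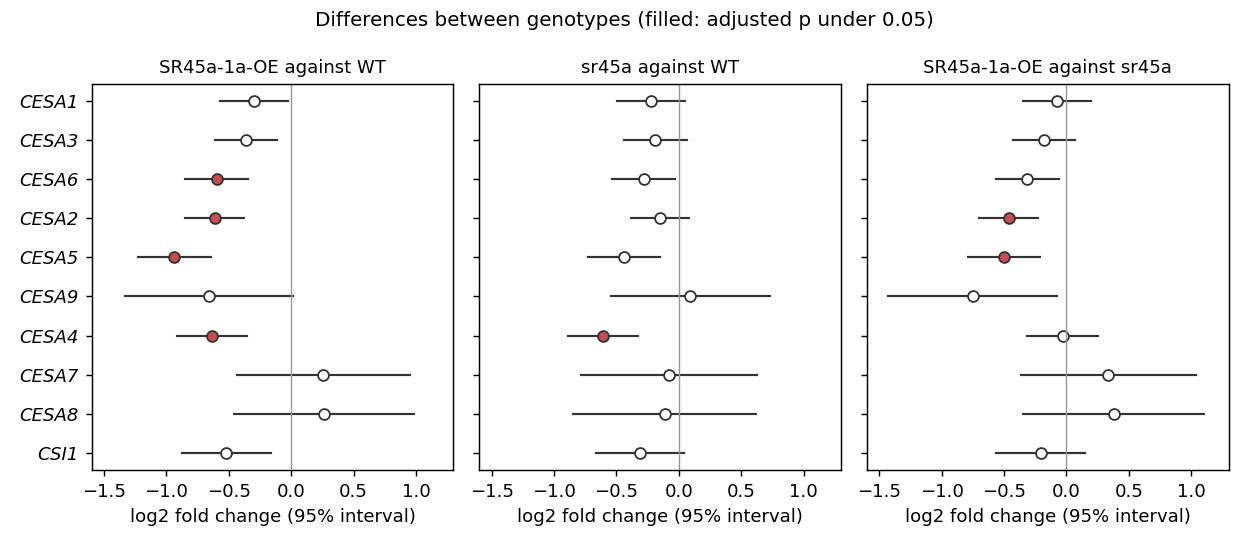
Log2 fold changes of the 10 genes in the 3 comparisons, with 95% intervals from edgeR's quasi-likelihood fit of 9 libraries; filled points have an adjusted p under 0.05. CESA5, CESA2, CESA6 and CESA4 are filled in SR45a-1a-OE against WT, CESA4 alone in sr45a against WT, and CESA2 and CESA5 in SR45a-1a-OE against sr45a.

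The direct comparison of SR45a-1a-OE with sr45a tests whether the lines' differences from WT differ. CESA2 was lower in SR45a-1a-OE, with a log2 difference of −0.46 (SE 0.11, edgeR adjusted p = 0.0279) and so was CESA5, with −0.50 (SE 0.13, edgeR adjusted p = 0.0435). These 2 of 10 compare with 4.45% of all tested genes that were lower and 2.81% that were higher in SR45a-1a-OE than in sr45a. The split over all genes was 894 lower and 565 higher with TMM scaling, and 1051 lower and 396 higher with library totals alone. For the other 8 genes the difference did not pass. For CESA4 it was −0.03 with a 95% interval from −0.31 to 0.26 (SE 0.13, edgeR adjusted p = 0.916). The CESA2 call was lost without SR45a-1a-OE replicate 1, without sr45a replicate 1 or 2 and without WT replicate 2 (edgeR adjusted p of 0.0527 to 0.143), and the CESA5 call was lost in 7 of the 9 fits that left out 1 library (edgeR adjusted p of 0.0560 to 0.203), the exceptions being those without replicate 3 of SR45a-1a-OE or of sr45a.

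The share of the interchangeable subunits in the primary wall set was lower in every SR45a-1a-OE library than in WT. CESA2, CESA5, CESA6 and CESA9 together gave 31.5%, 31.3% and 36.7% of the summed primary wall CESA FPKM in SR45a-1a-OE, 37.8%, 38.6% and 34.8% in sr45a and 38.3%, 38.7% and 38.3% in WT. All SR45a-1a-OE libraries were below all WT libraries, but replicate 3 of SR45a-1a-OE was above replicate 3 of sr45a. The means were 33.1 ± 3.07% in SR45a-1a-OE, 37.1 ± 2.03% in sr45a and 38.4 ± 0.215% in WT (SD, n = 3). The exact two-sided permutation p was 0.1 for SR45a-1a-OE against WT, the smallest that 3 against 3 libraries can give, 0.3 for sr45a against WT and 0.2 for SR45a-1a-OE against sr45a, so none can pass 0.05. In the same libraries the CESA1 share averaged 30.4 ± 1.29% in SR45a-1a-OE, 27.5 ± 1.44% in sr45a and 27.4 ± 0.266% in WT. The summed FPKM of the 6 primary wall genes was 272 ± 33.6 in SR45a-1a-OE, 329 ± 25.0 in sr45a and 385 ± 29.9 in WT.

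The 250 bases before the annotated start of the 3 primary wall genes that fell in SR45a-1a-OE are shown because these genes moved together. They are chr4:18296138-18296387 for CESA2, chr5:3072620-3072869 for CESA5 and chr5:25880783-25881032 for CESA6, all on the plus strand of TAIR10.1. Capitals mark matches to the words searched.
CESA2: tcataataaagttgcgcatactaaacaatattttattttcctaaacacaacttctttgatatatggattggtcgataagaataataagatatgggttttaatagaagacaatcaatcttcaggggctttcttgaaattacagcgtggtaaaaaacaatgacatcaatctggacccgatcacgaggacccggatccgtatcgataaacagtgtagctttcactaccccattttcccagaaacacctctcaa
CESA5: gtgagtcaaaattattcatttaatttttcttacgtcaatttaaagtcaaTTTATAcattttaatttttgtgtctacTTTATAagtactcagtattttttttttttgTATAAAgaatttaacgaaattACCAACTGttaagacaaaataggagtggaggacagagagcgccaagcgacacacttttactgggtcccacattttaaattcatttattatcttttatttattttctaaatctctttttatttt
CESA6: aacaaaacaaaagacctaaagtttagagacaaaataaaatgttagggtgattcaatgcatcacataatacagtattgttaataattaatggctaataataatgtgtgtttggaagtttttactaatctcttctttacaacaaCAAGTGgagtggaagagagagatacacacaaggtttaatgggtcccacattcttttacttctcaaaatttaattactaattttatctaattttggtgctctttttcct
Searched on both strands were the TATA word TATAAA, the E-box CANNTG, the heat shock element core GAANNTTC, the brassinosteroid words CGTGTG or CGTGCG, and words bound by MYB46 or MYB83, regulators of secondary wall genes. The MYB words were ACCAAAC or ACCAAAT or ACCAACC or ACCAACT or ACCTAAC or ACCTAAT or ACCTACC or ACCTACT. The window of CESA5 held 3 TATA words, at positions −201, −174 and −144 from the start, and 1 MYB word, ACCAACT, that overlapped an E-box at −123 to −116. CESA6 held 1 E-box at −108 and CESA2 held none of the words. Over 27443 windows of this length in the genome, 47.3% held a TATA word, 55.3% an E-box, 29.4% a MYB word, 9.55% a heat shock element core and 6.71% a brassinosteroid word. None of the 10 genes had the heat shock element core in the form searched, GAANNTTC, or a brassinosteroid word in its window. Other arrangements of the heat shock element were not searched, so the windows cannot be said to lack such elements. GC content was 36.4% for CESA2, 25.6% for CESA5 and 29.2% for CESA6.

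On gene counts CESA4 was called lower in both altered lines, while CESA7 and CESA8 did not pass in either. Whether the changes of these genes differ from each other was not tested. In sr45a against WT the confidence intervals of CESA7 (−0.78 to 0.62) and CESA8 (−0.85 to 0.62) held the CESA4 value of −0.61. In SR45a-1a-OE against WT the CESA4 value lay below both intervals. There the values of CESA7 and CESA8 turned negative without a single library, as described below. The transcript estimates of CESA4 and CESA7, given further below, differed from their gene counts. CESA4 had 6.21, 8.39 and 7.17 FPKM in SR45a-1a-OE, 8.37, 7.94 and 6.79 FPKM in sr45a and 13.8, 11.2 and 10.004 FPKM in WT. Both lines lay below every WT library and overlapped each other. The log2 fold change was −0.64 (SE 0.13, edgeR adjusted p = 0.01003) in SR45a-1a-OE against WT and −0.61 (SE 0.13, edgeR adjusted p = 0.0399) in sr45a against WT. The first call was lost without SR45a-1a-OE replicate 1 (edgeR adjusted p = 0.0535). The second was lost without any 1 of the 3 sr45a or the 3 WT libraries (edgeR adjusted p of 0.0521 to 0.181) and with limma on log2(FPKM + 1) (adjusted p = 0.107), though the direction stayed negative.

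CESA7 (AT5G17420, chr5:5736630-5741500, minus strand, 12 exons) was measured at 2.31, 4.76 and 1.82 FPKM in SR45a-1a-OE, 2.55, 1.95 and 2.76 FPKM in sr45a and 3.34, 2.64 and 1.71 FPKM in WT. CESA8 (AT4G18780, chr4:10312624-10316886, minus strand, 12 exons) was at 1.96, 4.65 and 1.55 FPKM in SR45a-1a-OE, 2.04, 1.90 and 2.54 FPKM in sr45a and 2.96, 2.24 and 1.80 FPKM in WT. Replicate 2 of SR45a-1a-OE was the highest of the 9 libraries for both, and all groups overlapped. The log2 fold change in SR45a-1a-OE against WT was 0.26 for each, with 95% intervals from −0.44 to 0.95 for CESA7 and from −0.46 to 0.99 for CESA8 (edgeR adjusted p = 0.618 and 0.624). Without that library it was −0.23 for CESA7 and −0.33 for CESA8, still short of the threshold. In sr45a against WT it was −0.08 (SE 0.32, edgeR adjusted p = 0.934) for CESA7 and −0.11 (SE 0.34, edgeR adjusted p = 0.904) for CESA8.

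Markers of xylem moved with the same library. The summed level of XCP1, XCP2, LAC4 and FLA11, genes of xylem cell death, lignin formation and fibre walls, was 57.8, 106 and 56.2 FPKM in SR45a-1a-OE, 60.1, 55.9 and 68.4 FPKM in sr45a and 67.7, 58.4 and 55.3 FPKM in WT. Of 16 xylem and secondary wall genes, 12 were highest of all 9 libraries in SR45a-1a-OE replicate 2. The share of all tested genes that were highest in that library was not counted, so the 12 cannot be read as particular to xylem genes. None of the 4 markers passed in any comparison, and CESA4 in that library (8.39 FPKM) was below all WT libraries. Secondary wall CESA FPKM per 100 primary wall CESA FPKM averaged 4.69 ± 0.994 in SR45a-1a-OE, 3.74 ± 0.111 in sr45a and 4.28 ± 0.524 in WT, with an exact permutation p of 0.6 for SR45a-1a-OE against WT, 0.2 for sr45a against WT and 0.1 for SR45a-1a-OE against sr45a. CESA4 gave 58.1 ± 10.5% of the secondary wall sum in SR45a-1a-OE, 62.7 ± 5.78% in sr45a and 70.8 ± 2.85% in WT. These shares rest on gene FPKM and do not hold on annotated transcripts. There the 3 CESA4 transcripts averaged 0.404, 0.774 and 0.654 FPKM in WT, beside 1.33 for CESA7 and 2.63 for CESA8.

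**Figure D3:**
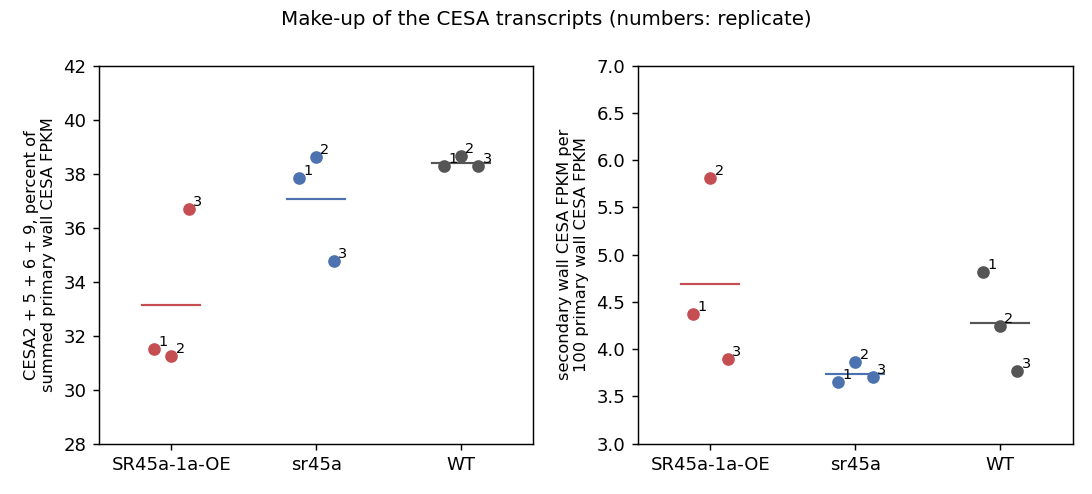
Left, CESA2, CESA5, CESA6 and CESA9 as a percent of the summed primary wall CESA FPKM; right, secondary wall CESA FPKM per 100 primary wall CESA FPKM. Points are libraries with their replicate number, bars are means of 3, and neither axis starts at 0; the SR45a-1a-OE libraries lie below WT on the left (31.3 to 36.7% against 38.3 to 38.7%), and replicate 2 of SR45a-1a-OE is the highest on the right at 5.81.

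Genes next to CESA4 and the transcript tables give further values to set beside its fall. The gene, AT5G44030, lies at chr5:17714390-17719723 on the plus strand of TAIR10.1, and the preceding gene AT5G44020, at chr5:17712203-17714406 on the same strand, overlaps its annotated start by 17 bases. AT5G44020 was far more abundant, at 340, 306 and 449 FPKM in SR45a-1a-OE, 638, 584 and 468 FPKM in sr45a and 677, 808 and 771 FPKM in WT. It was lower than WT in every library of both lines, with a log2 fold change of −0.995 (SE 0.16, edgeR adjusted p = 0.00486) in SR45a-1a-OE against WT and −0.43 (SE 0.16, edgeR adjusted p = 0.225) in sr45a against WT. AT5G44040, which overlaps the other end of CESA4 by 65 bases on the opposite strand, did not pass in either (edgeR adjusted p = 0.196 and 0.770). CESA7 also has such a neighbour, AT5G17410, which overlaps it by 66 bases on the opposite strand. AT5G17410 had 366 to 662 counts per library, beside 120 to 350 for CESA7, and did not pass in either comparison (edgeR adjusted p = 0.355 and 0.984). Its part in the CESA7 values was not tested. Whether the counting used strand is not given in the sources used here.

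The scale of the transcript estimates exceeds that of the gene counts, with a median of 3.91 units per gene count over 3183 genes that have a single transcript. These genes were limited to high counts in all 9 libraries, a limit that CESA7, CESA8 and CESA9 did not reach. CESA1, CESA2, CESA3, CESA5, CESA6, CESA9 and CSI1 had 3.71 to 4.00 units per count, and CESA8 4.16 to 4.51. CESA4 had 0.303 to 0.850 units per count over its 3 annotated transcripts and CESA7 0.351 to 3.11, both under that median in every library. The tables hold 21725 of 68898 transcripts with no gene identifier, and how many of the CESA4 and CESA7 fragments went to these was not tested. Among the 3183 single-transcript genes 5% had fewer than 0.578 units per count. The part of AT5G44020 and of such transcripts in the CESA4 difference was not tested.

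**Figure D4:**
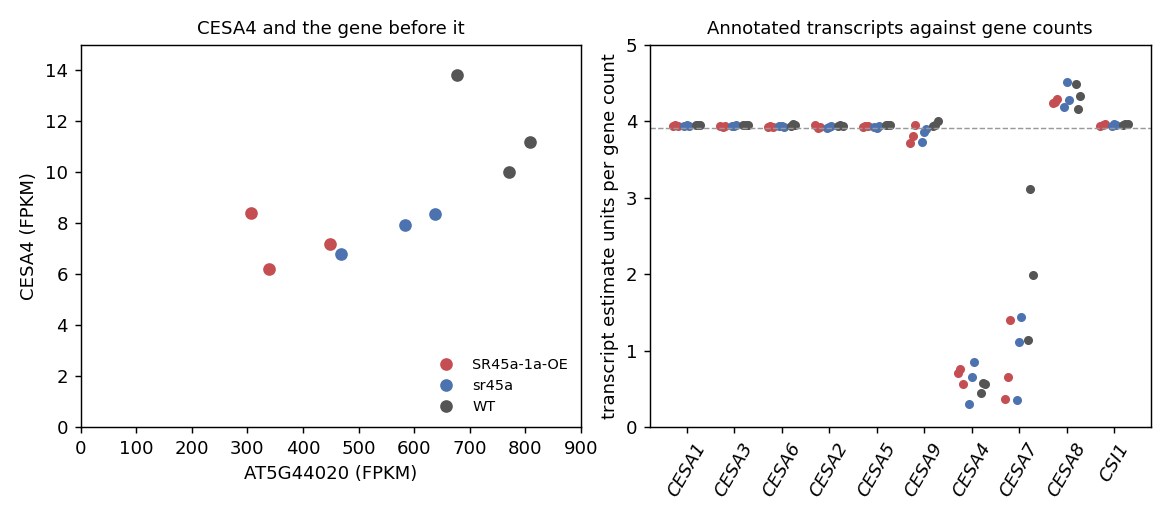
Left, CESA4 against the preceding gene AT5G44020 in FPKM, 1 point per library; right, transcript estimate units per gene count for each of the 10 genes, with SR45a-1a-OE, sr45a and WT from left to right and the dashed line at the median of single-transcript genes (3.91). WT lies highest on both axes of the left panel, and CESA4 and CESA7 lie below the line in every library on the right.

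In the transcript estimates none of the 12 transcripts of the 10 genes passed in SR45a-1a-OE against WT or in sr45a against WT by edgeR. Of all 35982 transcripts 0.0195% and 0.0222% were called lower. Among the 12, 6 and 2 had an unadjusted edgeR p under 0.05, a share that was not counted over all transcripts. The single transcripts of CESA2, CESA5 and CESA6 gave log2 fold changes of −0.63, −0.95 and −0.61 in SR45a-1a-OE against WT, with edgeR adjusted p of 0.1197, 0.105 and 0.122. The single transcript of CESA7 had 62, 229 and 190 estimate units in SR45a-1a-OE, 66, 134 and 270 in sr45a and 283, 604 and 252 in WT. Its log2 fold change was −1.21 (SE 0.68, edgeR adjusted p = 0.548) in SR45a-1a-OE against WT, where the gene counts gave 0.26. In sr45a against WT it was −1.16 (SE 0.68, edgeR adjusted p = 0.783). Of the 3 transcripts of CESA4, AT5G44030.3 had 32, 36 and 38 estimate units in SR45a-1a-OE, 90, 137 and 89 in sr45a and 132, 179 and 121 in WT. SR45a-1a-OE lay below both other groups (log2 fold change against WT −1.97, SE 0.37, edgeR adjusted p = 0.121). AT5G44030.1 did not separate the groups, with 100 to 138 units in SR45a-1a-OE, 105 to 126 in sr45a and 108 to 141 in WT. AT5G44030.2 ranged from 190 to 346 units in SR45a-1a-OE, 9 to 221 in sr45a and 226 to 236 in WT. As a share of the CESA4 estimate, AT5G44030.3 averaged 9.04 ± 2.20% in SR45a-1a-OE, 34.1 ± 12.1% in sr45a and 28.8 ± 4.62% in WT. Transcript usage of CESA4 did not pass in any comparison (edgeR diffSpliceDGE, adjusted p = 1 throughout, unadjusted p of 0.323 to 0.909), where 0.342% of 7888 genes passed in SR45a-1a-OE against WT and 0.292% in sr45a against WT.

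CSI1 (AT2G22125, chr2:9406059-9414578, plus strand, 8 exons), the linker to microtubules, was at 8.36, 12.8 and 8.73 FPKM in SR45a-1a-OE, 13.0, 10.7 and 12.1 FPKM in sr45a and 17.9, 13.8 and 12.7 FPKM in WT. Replicate 2 of SR45a-1a-OE just overlapped the lowest WT library in FPKM, while on TMM-scaled counts SR45a-1a-OE lay wholly below WT. The log2 fold change was −0.52 (SE 0.16, 95% interval −0.88 to −0.16) in SR45a-1a-OE against WT, which missed the threshold (edgeR adjusted p = 0.0515) but passed in 4 of 19 other settings, for example DESeq2 (adjusted p = 0.0246) and without SR45a-1a-OE replicate 2 (edgeR adjusted p = 0.0153). In sr45a against WT it was −0.31 (SE 0.16, edgeR adjusted p = 0.380).

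Likeness of the genes' profiles over the 9 libraries was measured as the root mean square difference of log2 CPM after centring each gene, as a description over libraries that share their depth and genotype. The nearest pairs were CESA1 and CESA3 (0.056), CESA2 and CESA6 (0.070) and CESA7 and CESA8 (0.119). CESA4 lay nearer to CESA6 (0.170) than to CESA7 (0.484) or CESA8 (0.482). Nearest to the mean profile of CESA1, CESA3 and CESA6 among other genes were CEF, AT1G26130, ACS and XF1 (0.042 to 0.051, against a median of 0.302 over all genes). Nearest to that of CESA4, CESA7 and CESA8 were CCT, AAP2, AT4G36080 and ABCC14 (0.107 to 0.119, against 0.399).

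Genes that work around the complex were described by 7 lists of 120 genes, of which 104 were tested. In SR45a-1a-OE against WT 26 of them fell and 4 rose, where 8.59% of all tested genes fell and 6.76% rose. These 30 calls became 12 without SR45a-1a-OE replicate 1 and 14 without WT replicate 2. In sr45a against WT none fell and 2 rose, CSLB3 and CSLB4, where 0.761% of all genes fell and 0.861% rose. Among 17 tubulin and cortical microtubule genes, the tracks that CSI1 binds, 9 fell and none rose in SR45a-1a-OE against WT (median log2 fold change −0.50, beside 0.01 over all genes). The 9 are 52.9% of the list, beside 8.59% of all genes that fell. They include the microtubule bundling protein gene MAP65-1 (−0.62, SE 0.10), the beta-tubulin gene TUB7 (−0.80, SE 0.14) and the alpha-tubulin genes TUA4 (−0.71, SE 0.13) and TUA3 (−0.54, SE 0.10), with edgeR adjusted p of 0.00476 to 0.00624. Tubulin genes are close paralogs, so reads may be split between them. These 4 passed in every fit that left out 1 library. The list's median was −0.03 in sr45a against WT, and its most abundant genes TUA6 (−0.09, SE 0.11) and TUA4 (−0.04, SE 0.13) did not pass (edgeR adjusted p = 0.742 and 0.924).

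Of 18 complex partners 4 fell and none rose (median −0.27): COB, a membrane-anchored protein needed for oriented cellulose deposition (−0.58, SE 0.12), the transmembrane protein gene AT1G45688 (−0.44, SE 0.10), the chitinase-like gene CTL1 (−0.43, SE 0.12) and KLCR2 (−0.42, SE 0.13), with edgeR adjusted p of 0.00935 to 0.0464. The 4 are 22.2% of the list, beside 8.59% of all tested genes that fell. KLCR2 missed the threshold in 15 of 19 other settings. Without SR45a-1a-OE replicate 1 the edgeR adjusted p was 0.0504 for COB, 0.0762 for AT1G45688, 0.112 for CTL1 and 0.173 for KLCR2; without WT replicate 2 it was 0.0756 for AT1G45688, 0.119 for CTL1 and 0.159 for KLCR2, while COB passed. CTL1 was also lost without WT replicate 3 (0.0983) or SR45a-1a-OE replicate 2 (0.0819). No partner passed in sr45a against WT, the most abundant being CTL1 (−0.14, SE 0.12) and the endoglucanase gene KOR1 (−0.15, SE 0.11), with edgeR adjusted p of 0.601 and 0.558. The cellulose synthase-like genes, relatives that make other wall polysaccharides, had 7 of 21 lower and 2 higher in SR45a-1a-OE against WT (median −0.53). Of all tested genes 8.59% fell and 6.76% rose there. The glucomannan synthase genes CSLA9 (−1.32, SE 0.19) and CSLA7 (−0.66, SE 0.10) and the xyloglucan backbone gene CSLC5 (−0.99, SE 0.17) fell, and CSLB3 rose (0.56, SE 0.11), with edgeR adjusted p of 0.00335 to 0.00996. CSLB3 was also higher in sr45a against WT (0.65, SE 0.11, edgeR adjusted p = 0.0162), as was CSLB4 (0.62, SE 0.13, edgeR adjusted p = 0.0312). Leaving out 1 library ended the CSLB3 call in sr45a for WT replicates 2 and 3 and sr45a replicates 1 and 2 (edgeR adjusted p of 0.0645 to 0.0871), and the CSLB4 call for each WT replicate and sr45a replicates 1 and 3 (0.101 to 0.141).

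Of 10 genes for sucrose cleavage and UDP-glucose supply 2 fell in SR45a-1a-OE against WT, UGP1, a UDP-glucose pyrophosphorylase gene (−0.62, SE 0.12, edgeR adjusted p = 0.0076), and the sucrose synthase gene SUS2 (−1.41, SE 0.29, edgeR adjusted p = 0.0107), while the list's median was 0.17. The 2 are 20% of the list, beside 8.59% of all tested genes that fell. SUS2, at 0.583 CPM in SR45a-1a-OE against 1.56 CPM in WT, was lost without SR45a-1a-OE replicate 1 (edgeR adjusted p = 0.0542). In sr45a seedlings UGP1 differed from WT by −0.45 (SE 0.12, edgeR adjusted p = 0.0851) and UGP2 by 0.13 (SE 0.11, edgeR adjusted p = 0.606), and neither passed. Of 8 wall sensing and brassinosteroid genes 3 fell, the receptor kinase genes FEI1 (−0.48, SE 0.10), FEI2 (−0.38, SE 0.09) and THE1 (−0.66, SE 0.16), with edgeR adjusted p of 0.00938 to 0.0202. These 3 are 37.5% of the list, again beside 8.59%. FEI2 and THE1 were lost without SR45a-1a-OE replicate 1 (0.0635 and 0.0818) or WT replicate 2 (0.0612 and 0.0778), and THE1 also without WT replicate 1 (0.0679), by edgeR. The receptor kinase genes FER (−0.02, SE 0.12) and BRI1 (−0.07, SE 0.14) did not pass in sr45a against WT (edgeR adjusted p = 0.947 and 0.843).

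Of 14 secondary wall regulators none fell and 2 rose, MYB85 (1.53, SE 0.42) and SND3 (0.77, SE 0.23), with edgeR adjusted p of 0.0328 and 0.0441 and low levels of 0.926 and 3.26 CPM in SR45a-1a-OE against 0.318 and 1.92 CPM in WT. The 2 are 14.3% of the list, beside 6.76% of all tested genes that rose. Both calls were lost without any 1 WT library and without SR45a-1a-OE replicate 1 or 2 (edgeR adjusted p of 0.0524 to 0.14), and SND3 also without sr45a replicate 2 (0.0585). No regulator passed in sr45a against WT, the most abundant being KNAT7 (−0.21, SE 0.17) and SND3 (0.37, SE 0.24), with edgeR adjusted p of 0.590 and 0.471. Of 16 xylem and secondary wall genes 1 fell, a share of 6.25% that is near the 8.59% of all genes: PARVUS, which acts in xylan synthesis (−0.45, SE 0.10, edgeR adjusted p = 0.0156; 0.0738 without SR45a-1a-OE replicate 1 and 0.0773 without WT replicate 2), and the list's median was 0.16. XCP2 and FRA8, the most abundant of that list, were at −0.01 each in sr45a against WT (SE 0.21 and 0.13, edgeR adjusted p = 0.984 and 0.973). In SR45a-1a-OE against sr45a 19 of the 104 genes were lower and none was higher, where 4.45% of all genes were lower and 2.81% higher. That count was 0 without SR45a-1a-OE replicate 1 or sr45a replicate 1, 3 without sr45a replicate 2, 7 without SR45a-1a-OE replicate 2 or WT replicate 2, and 12 without WT replicate 3.

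**Figure D5:**
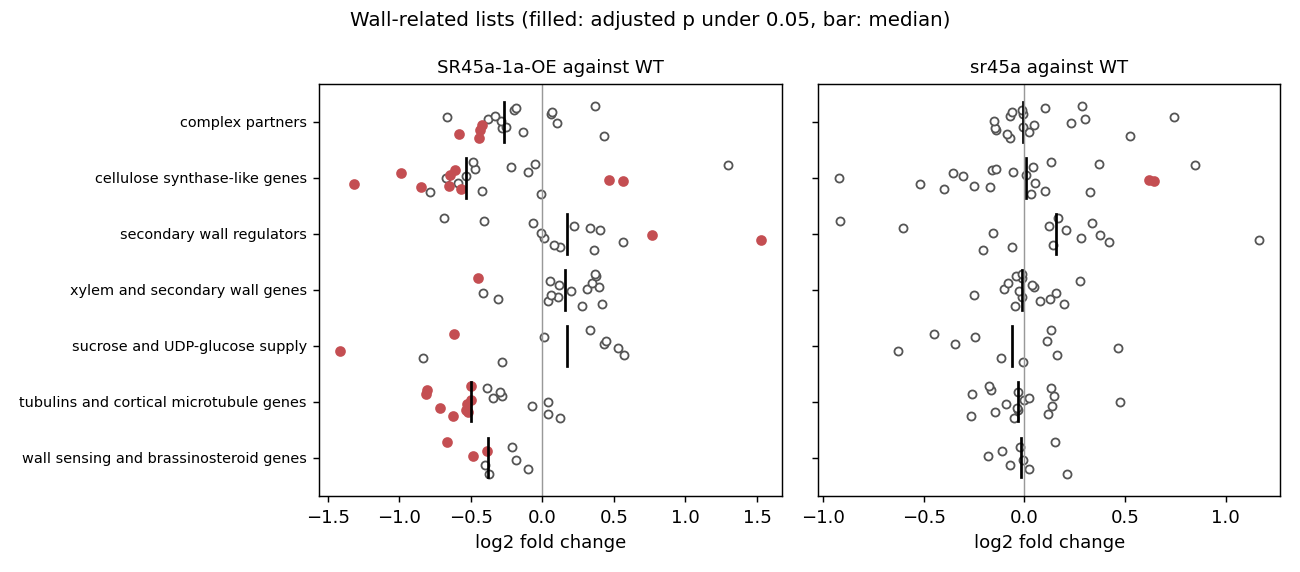
Log2 fold changes of the tested genes of 7 wall-related lists in SR45a-1a-OE against WT (left) and sr45a against WT (right); each point is a gene, filled points have an edgeR adjusted p under 0.05, and vertical bars are list medians. The filled points on the left lie mostly below 0 (26 lower, 4 higher), and on the right the 2 filled points are CSLB3 and CSLB4.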

How the data were processed

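RNA sequencing of 9 seedling libraries was analysed, 3 per genotype, grouped by the labels. Per the labels' protocols, the authors sequenced 150-bp paired ends and cleaned them with fastp (minimum length 36 bp); the aligner, counter, build and annotation are not given in the sources used here. The deposited gene tables hold whole-number counts and FPKM, and the deposited transcript tables hold estimated counts, rounded to whole numbers here, and FPKM. Gene ends in the deposited tables equalled TAIR10.1 for 26960 of 26967 loci, and gene names were matched by locus to that annotation.

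Counts were tested with edgeR 4.0.16 under R 4.3.3, using TMM scaling, filterByExpr (minimum count 10, minimum total 15), 1 coefficient per genotype over 9 libraries, quasi-likelihood F tests and Benjamini-Hochberg adjustment over all 20103 genes, with a threshold of 0.05. CPM values include the TMM scaling. Standard errors were derived from the F statistics. Replicates of 1 group differed by more than sampling noise, with a chi-square per gene of 5.34 to 40.9. Intervals cover the spread between libraries; for CESA9 counting error is a large part of it.

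The members and lists were chosen with earlier results of these data known. Named were all members and, from each list and comparison with WT, the 4 called genes with the smallest p, or the 2 most abundant where none was called. AT5G44020, AT5G44040 and AT5G17410 were chosen after their values were seen. Sequences were read with Python 3.11.15 and aligned with Biopython 1.88. Alternatives were DESeq2 1.42.0 and its size factors, library totals alone, no filter, only the 6 libraries compared, a replicate block, limma 3.58.1 on log2(FPKM + 1) and log2(FPKM + 0.1), a log2 fold change of at least 1, and leaving out libraries.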

Additional observations from a re-analysis of the deposited data

How the results depend on the processing

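Of the 4 members called in SR45a-1a-OE against WT, CESA2, CESA5 and CESA6 passed under every alternative except an added log2 fold change of at least 1, which left 0, and leaving out 1 library gave 3 to 6. The 30 list genes called there became 19 with the replicate block and 3 with the fold threshold, and 12 to 36 when 1 library was left out (12 without SR45a-1a-OE replicate 1 and 14 without WT replicate 2). The 1 member called in sr45a against WT became 0 with library totals alone, the replicate block, limma with either pseudocount, the fold threshold and without both replicate 3 libraries of the altered lines, and 0 to 1 when 1 library was left out; the 2 list genes became 0 with the block and the fold threshold, 1 with limma and without both replicate 3 libraries, and 0 to 2 with 1 left out. In SR45a-1a-OE against sr45a the 2 members became 0 with only the 6 libraries compared, the block and the fold threshold (0 to 2 with 1 library left out), and the 19 list genes became 31 with DESeq2, 3 with the 6 libraries, 3 with the block, 1 with the fold threshold and 33 without both replicate 3 libraries (0 to 25 with 1 left out). No result changed sign past the threshold, and the causes were not tested. Deviations of same-numbered libraries correlated at −0.33 to 0.19, and those of differently numbered libraries at −0.30 to 0.34. With 3 libraries per group these values cannot show whether the numbers mark pairs.

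Transcript and usage counts of the members were 0 under every alternative. In the main fit 7 of all 35982 transcripts were called lower in SR45a-1a-OE against WT and 8 in sr45a against WT. Usage was tested for CESA4 alone. The repeated 0 therefore cannot show that the transcripts of the members were unchanged. The difference in the share of CESA2, CESA5, CESA6 and CESA9 was −7.03 to −4.31 percentage points in SR45a-1a-OE against WT, −2.10 to −0.18 in sr45a against WT and −5.70 to −2.99 in SR45a-1a-OE against sr45a when 1 library was left out. The ratio of secondary to primary wall level differed by −0.14 to 0.81, −0.79 to −0.27 and 0.40 to 1.35 per 100 in the same order; in sr45a against WT it was −0.14 on annotated transcripts, against −0.54 on genes. Library totals alone moved the median of all genes by under 0.1 (log2), with 1962 genes lower and 1074 higher in SR45a-1a-OE against WT, beside 1726 and 1358 with TMM. DESeq2 called 727 genes in sr45a against WT, beside 326 with edgeR.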
